A study of Mus musculus with 20 samples.

Results

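The immunoglobulin kappa variable (V) genes of the mouse were examined in RNA sequencing libraries of whole spleen. They were taken as the rows of the count table that carry the gene type IG_V_gene and a name beginning with Igkv, which gave 100 of the 54532 genes listed. The mice were 4 weeks old in both groups and were either gluten-free or control. The 20 libraries comprised gluten-free libraries with plain number IDs (7, 8, 9 and 10; n = 4), control libraries with plain number IDs (1 to 8; n = 8), gluten-free libraries whose ID is a number after the letter S (S1, S3, S5, S6 and S8; n = 5) and control libraries of that form (S1, S2 and S6; n = 3). What the S stands for is not given, and libraries of the 2 forms may come from separate cohorts, so diet was compared within each form. Strain, sex and diet composition are not given in the sources used here, and no label says that each ID is a separate mouse, so the p-values measure the spread between these libraries.

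A kappa light chain is encoded by 1 V gene, a J segment (Igkj) and the constant region Igkc. In a developing B cell the recombinase joins a V gene to a J segment, and that B cell and its descendants then transcribe the joined gene. The V gene provides most of the part of the light chain that contacts antigen, including the first bases of the hypervariable loop CDR3, while the J segment provides the last. Kappa chains are the main light chains of mouse B cells. Read counts of the V genes in whole spleen therefore add up the numbers of B cells and plasma cells that use each gene and the amount of transcript in each, and fewer cells of a type and less RNA per cell cannot be told apart in them.

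All 100 kappa V genes lie on chromosome 6 of GRCm38, between 18.4 and 3166 kb from the J segment Igkj1. The listed gene lengths ran from 338 to 501 bases, and 38 genes lie on the strand of the J segments and 62 on the opposite strand. Genes on the opposite strand join by inversion of the DNA between V and J. The V exon of the most highly counted gene, Igkv14-126, lies at chr6:67896345-67896642 on the plus strand and is shown whole from its 5′ end. Capitals run from the last in-frame cysteine codon to the end of the exon. They hold that codon, which lies just before CDR3, and the germline start of CDR3. The sequence of Igkv14-126 and those that follow are from the GENCODE M21 transcripts on GRCm38.
Igkv14-126: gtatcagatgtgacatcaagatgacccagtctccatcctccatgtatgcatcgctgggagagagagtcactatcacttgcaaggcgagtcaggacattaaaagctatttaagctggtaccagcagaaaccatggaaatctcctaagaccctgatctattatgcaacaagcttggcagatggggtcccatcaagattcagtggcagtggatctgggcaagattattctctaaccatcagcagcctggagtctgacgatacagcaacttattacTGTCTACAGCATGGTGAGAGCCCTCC

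The ends of the V exons of 9 further genes on which the results turn are given with the same use of capitals. The genes are, in order, other highly counted genes, genes with a peak in 1 library, the gene with the lowest p within the S IDs, and a pair of near-identical genes. They lie at chr6:68631963-68632003 (Igkv10-96), chr6:69648824-69648866 (Igkv4-53), chr6:69775750-69775790 (Igkv5-45), chr6:68768555-68768597 (Igkv4-91), chr6:70672337-70672377 (Igkv3-4), chr6:69858420-69858460 (Igkv12-41), chr6:69943186-69943226 (Igkv12-38), chr6:70335841-70335881 (Igkv6-20) and chr6:70138462-70138502 (Igkv6-29). Igkv3-4 is on the plus strand and the others are on the minus strand.
Igkv10-96: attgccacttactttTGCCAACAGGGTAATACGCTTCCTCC
Igkv4-53: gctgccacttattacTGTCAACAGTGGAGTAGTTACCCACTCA
Igkv5-45: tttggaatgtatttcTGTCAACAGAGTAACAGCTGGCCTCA
Igkv4-91: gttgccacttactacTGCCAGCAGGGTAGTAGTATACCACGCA
Igkv3-4: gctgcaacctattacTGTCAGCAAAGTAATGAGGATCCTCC
Igkv12-41: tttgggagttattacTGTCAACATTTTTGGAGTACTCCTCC
Igkv12-38: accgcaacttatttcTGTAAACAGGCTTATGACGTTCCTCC
Igkv6-20: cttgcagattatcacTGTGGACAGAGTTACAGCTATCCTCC
Igkv6-29: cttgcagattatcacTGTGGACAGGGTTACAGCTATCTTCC

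Library totals ran from 13626021 counts (control 6) to 24268237 counts (gluten-free S3), and the kappa V genes together held 153324 counts over all libraries. Of the 100 genes, 89 had at least 1 count, 67 had 100 or more and 58 had a count in every library. No count was found for 11 genes, 8 of which belong to the Igkv4 family. A count of 0 allowed a share of the kappa V counts of up to 0.101% in the library with the fewest kappa V counts, gluten-free S5, and of up to 0.0190% in the library with the most, gluten-free 9, with counting error alone considered. The expression filter left 17600 genes for testing, among them 63 kappa V genes, and the 37 others held 0.691% of the kappa V counts on average. The filter keeps genes that are high in any group of libraries, so the genes tested do not stand for all 100. All markers of B cells (10 genes) and plasma cells (8 genes) had counts in every library, as did those of T cells (10), erythroid cells (14) and neutrophils (10).

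Usage was uneven. The 10 genes with the highest level per length took 55.1% of the kappa V counts on average over the libraries, and 9 genes were enough to pass 50%. Igkv14-126 was the highest, at 182 ± 121 CPM per kb (CPM, the usual scaling of counts to library size, here with TMM factors, per kb of gene length; SD, n = 20), and took 14.6% ± 6.42 of the kappa V counts. Igkv10-96 followed at 66.9 ± 26.3 CPM per kb and Igkv4-53 at 64.0 ± 24.6 CPM per kb. The remainder of the 10 were Igkv1-132, Igkv1-117, Igkv3-1, Igkv6-20, Igkv1-110, Igkv5-45 and Igkv8-24, with means between 52.7 and 39.0 CPM per kb. From Igkv10-96 down to Igkv8-24 each step in this order was smaller than the SD over the libraries.

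**Figure D1:**
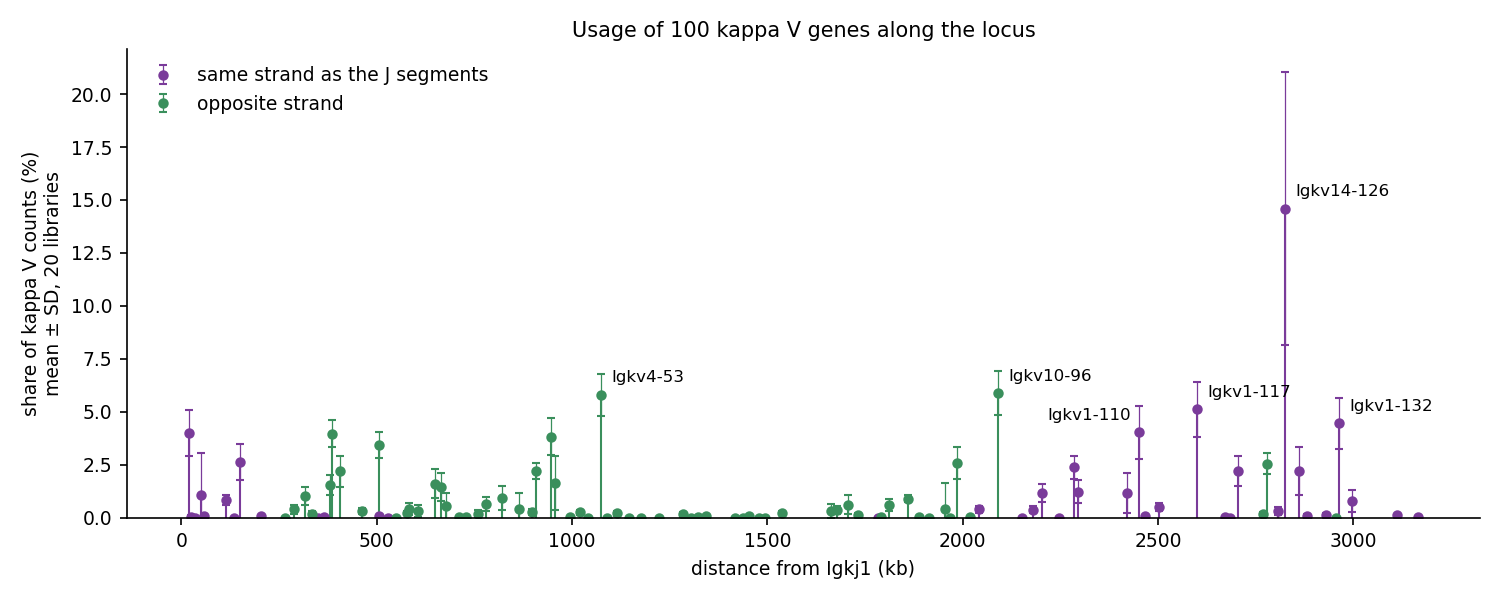
Mean share of the kappa V counts (%, vertical axis, error bars SD over 20 libraries) of each of the 100 kappa V genes against its distance from Igkj1 (kb, horizontal axis), coloured by strand. Igkv14-126 stands at 14.6% and no other gene exceeds 5.89%.

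Usage differed along the locus, in windows of 500 kb from Igkj1. The 19 genes within 500 kb took 18.5% ± 3.06 of the kappa V counts (SD, n = 20) and the 21 genes between 500 and 1000 kb took 18.3% ± 2.82. The 17 genes between 1000 and 1500 kb took 6.62% ± 1.06, and the 14 genes between 1500 and 2000 kb took 6.31% ± 1.31. The 12 genes between 2000 and 2500 kb took 16.8% ± 1.99, the 15 genes between 2500 and 3000 kb took 33.2% ± 5.85, and the 2 farthest genes took 0.158% ± 0.0870. Usage was thus lowest beyond 3000 kb and low in the middle of the locus, with the window that holds Igkv14-126 the highest. The 38 genes on the strand of the J segments took 50.5% ± 5.42 and the 62 on the opposite strand 49.5% ± 5.42. By family, Igkv1 (10 genes) took 18.0% ± 2.45 and Igkv14 (4 genes) took 16.0% ± 6.48, most of it from Igkv14-126. Igkv4, the family with the most genes (26), took 9.35% ± 1.62, and Igkv4-53 alone took 5.80% ± 0.999 of the kappa V counts.

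Near-identical genes limit how far single values can be read, since the treatment of reads that match several genes is not stated. The V exons of 47 genes matched another kappa V gene at 95% or more of their bases, and 7 of these were among the 11 with no count. Igkv6-20 matched Igkv6-29 at 98.3% of its bases, and only 44.2% of its windows of 100 bases were found in no other kappa V gene, the lowest share of the 100 genes. Igkv5-45 matched Igkv5-43 at 99.0% and had 67.1% of its windows unique, while in 61 genes, Igkv14-126 and Igkv4-91 among them, every window was unique. Of these 61 genes, 5 were among the 11 with no count. The 60 rows annotated as kappa V pseudogenes held 1770 counts, equal to 1.14% of all counts on kappa V genes and pseudogenes.

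In the plain IDs the kappa V genes were higher in gluten-free spleens as a group. The summed level was 656, 661, 605 and 640 CPM in gluten-free libraries 7, 8, 9 and 10, against 250 CPM in the lowest, 365 CPM at the median and 570 CPM in the highest of 8 control libraries. All gluten-free libraries of this form lay above all controls. The means were 640 ± 25.4 and 394 ± 114 CPM (gluten-free and control; SD, n = 4 and 8), a ratio of 1.63. In the S IDs the order was the opposite. The summed level was 318, 222, 185, 361 and 181 CPM in gluten-free libraries S1, S3, S5, S6 and S8, against 400, 455 and 439 CPM in control libraries S1, S2 and S6. All gluten-free S libraries lay below all S controls, with means of 254 ± 81.5 and 431 ± 28.2 CPM (gluten-free and control; SD, n = 5 and 3) and a ratio of 0.588.

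Igkc, the constant region that every kappa chain shares, moved in the same direction as the V genes in both ID forms. It averaged 2413 ± 192 CPM in gluten-free and 1483 ± 273 CPM in control libraries of the plain IDs, and 1172 ± 367 CPM in gluten-free and 1666 ± 126 CPM in control libraries of the S IDs. The kappa V counts per Igkc count were 0.267 ± 0.0240 in gluten-free and 0.262 ± 0.0413 in control libraries of the plain IDs, a difference smaller than the SD of either group. In the S IDs they were 0.220 ± 0.0377 in gluten-free and 0.260 ± 0.0242 in control libraries. This difference, -0.0396, was slightly larger than the SD of either group. The ranges overlapped, with gluten-free S8 at 0.263 and control S6 at 0.243. The lowest ratio, 0.163, was that of gluten-free S3.

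The evenness of usage differed little with diet. It was measured as the effective number of genes, the exponential of the Shannon entropy of the shares, which equals the number of genes that equal use would need. It was 30.1 ± 2.95 in gluten-free and 31.1 ± 3.60 in control libraries of the plain IDs, and 33.6 ± 2.91 in gluten-free and 31.1 ± 5.22 in control libraries of the S IDs. Both differences were smaller than the SD within the groups. When every library was thinned to 2980 kappa V counts, the values were 30.0 ± 2.92 and 30.8 ± 2.98 in the plain IDs and 33.2 ± 3.08 and 30.9 ± 5.83 in the S IDs (gluten-free and control).

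**Figure D2:**
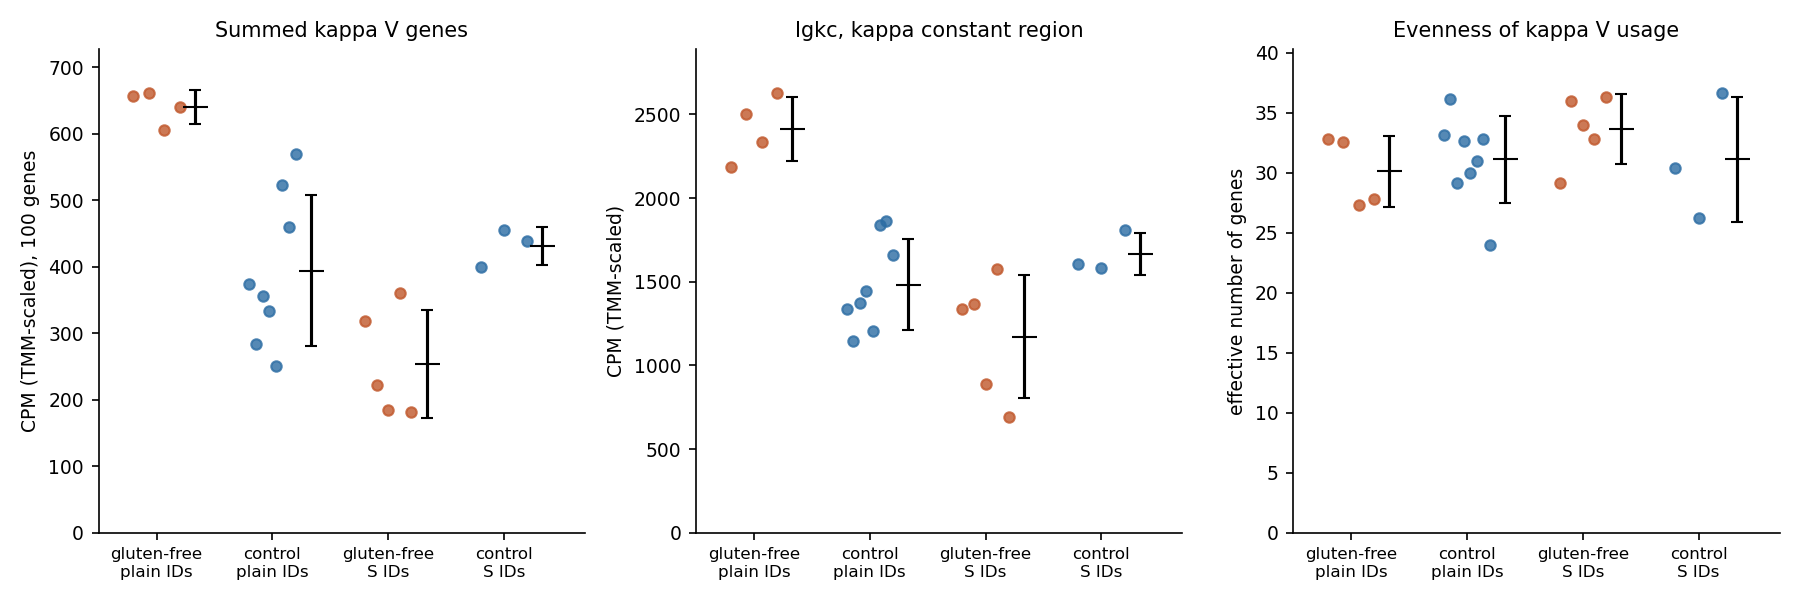
Summed level of the 100 kappa V genes (CPM, left), level of Igkc (CPM, middle) and effective number of kappa V genes (right) in each of 20 libraries (points), with mean and SD (black), for gluten-free and control libraries of the plain IDs and of the S IDs. The 4 gluten-free plain libraries lie between 605 and 661 CPM, above all plain controls, and the 5 gluten-free S libraries lie below all S controls.

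In the test within the plain IDs (edgeR's quasi-likelihood test with Benjamini-Hochberg adjustment over 17600 genes, threshold 0.05), 21 of the 63 kappa V genes tested were called higher in gluten-free libraries and 0 lower. Of all genes tested, 16.1% were called higher. The median log2 fold change of the 63 was 0.67, against 0.05 for all genes tested. Fold changes were above 0 for 56 of the 63, and 28 had an unadjusted p under 0.05, all of them higher. Of all 17600 genes tested, 8447 had such a p, 4027 of them higher. The level of these V genes thus differed with diet in the same direction as Igkc, for which the log2 fold change was 0.70 ± 0.17 (SE, adjusted p = 0.00354 by edgeR). In the list of Igkc and the J segments (6 genes), 1 gene, Igkc, was called higher and 0 lower. The median log2 fold change of that list was 0.46.

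The smallest p was that of Igkv5-45. It had 39.2, 29.6, 19.3 and 25.1 CPM in gluten-free libraries 7, 8, 9 and 10, against 9.33 CPM in the lowest, 12.8 CPM at the median and 17.8 CPM in the highest control library. Every gluten-free library was above every control. The log2 fold change was 1.12 ± 0.18 (SE; adjusted p = 0.000183 by edgeR). Igkv8-19 had 11.2, 16.0, 13.2 and 8.68 CPM in gluten-free libraries 7, 8, 9 and 10, against 3.46, 5.44 and 8.14 CPM (lowest, median and highest) in control libraries. The groups did not overlap, although gluten-free 10 was close to the highest control, and the log2 fold change was 1.12 ± 0.23 (adjusted p = 0.000822 by edgeR).

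Igkv10-96 had 45.1, 39.2, 31.7 and 34.1 CPM in gluten-free libraries 7, 8, 9 and 10, against 11.01, 20.6 and 28.4 CPM (lowest, median and highest) in control libraries. All gluten-free values were above all control values, and the log2 fold change was 0.90 ± 0.20 (adjusted p = 0.00208 by edgeR). Igkv4-53 had 34.7, 49.9, 31.7 and 32.4 CPM in gluten-free libraries 7, 8, 9 and 10, against 16.3, 22.4 and 27.7 CPM in control libraries. Again the groups were apart, with gluten-free 8 well above the other gluten-free libraries, and the log2 fold change was 0.73 ± 0.15 (adjusted p = 0.000884 by edgeR). Igkv6-20 had 23.8, 26.2, 24.2 and 28.7 CPM in gluten-free libraries 7, 8, 9 and 10, against 9.97, 13.5 and 17.7 CPM in control libraries, with no overlap and a log2 fold change of 0.87 ± 0.18 (adjusted p = 0.000884 by edgeR). As its sequence is shared in large part with Igkv6-29, its counts may include reads of other genes.

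The called genes also included Igkv9-124 (log2 fold change 0.93 ± 0.20), Igkv8-24 (0.76 ± 0.20) and Igkv1-132 (1.00 ± 0.26), whose gluten-free values all lay above the control values. For Igkv9-123 (1.39 ± 0.37, adjusted p = 0.0064 by edgeR) the groups overlapped: gluten-free libraries 7, 8, 9 and 10 had 1.73, 1.00, 1.23 and 2.05 CPM, and control libraries had up to 1.23 CPM. Igkv1-117 (0.73 ± 0.20), Igkv1-110 (0.76 ± 0.21) and Igkv3-1 (0.92 ± 0.27) were called as well, so that 9 of the 10 highest genes by level were called. Without gluten-free 7, Igkv3-1 was not called.

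Igkv14-126, the most used gene, was not called. It had 72.1, 85.5, 130 and 130 CPM in gluten-free libraries 7, 8, 9 and 10, against 17.6, 57.1 and 170 CPM (lowest, median and highest) in control libraries of the plain IDs. The control range enclosed all gluten-free values, and the log2 fold change was 0.67 ± 0.49 (adjusted p = 0.282 by edgeR). Its share of the kappa V counts was 10.98%, 12.9%, 21.4% and 20.3% in gluten-free libraries 7, 8, 9 and 10, against 6.21%, 13.7% and 29.8% (lowest, median and highest) in control libraries.

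Genes of other chains and of B cell development were counted in the same fit. Of the lambda light chain genes, 5 of 9 tested were called higher in gluten-free libraries of the plain IDs and 0 lower (median log2 fold change 0.61), among them the constant regions Iglc1, Iglc2 and Iglc3 (0.56, 0.61 and 0.60). Of the heavy chain constant genes, 5 of 7 were called higher and 0 lower. Ighm, the constant region of IgM, stood at 0.70 ± 0.18 (log2 fold change, adjusted p = 0.0051 by edgeR) and Igha, that of IgA, 1.28 ± 0.33, while Ighd, that of IgD, at 0.40 ± 0.26, did not pass. Of the plasma cell markers, 5 of 8 were called higher and 0 lower. Of the B cell markers, 0 of 10 were called, with a median log2 fold change of 0.46, and the smallest adjusted p, that of Cr2, was 0.0733 by edgeR.

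Of the genes of B cell precursors, 5 of 7 were called higher and 0 lower, among them the surrogate light chain genes Vpreb1 (log2 fold change 1.46 ± 0.41) and Vpreb3 (0.53 ± 0.13). The recombination and end joining list held 3 of 12 genes called higher and 4 called lower, counts not far from the 16.1% (higher) and 21.3% (lower) found over the whole table. The genes called higher were Rag1 and Rag2, the subunits of the recombinase, and Dntt, the polymerase that adds bases at joins (log2 fold changes 1.59, 1.83 and 1.54). The genes called lower were Xrcc5 and Xrcc6, which encode the Ku heterodimer of end joining, and Hmgb1 and Hmgb2, chromatin proteins that also assist the recombinase. Of 13 light chain transcription factors, Irf4 and Spi1 were called higher and Tcf3 and Ctcf lower, 2 in each direction, which is no more than the share of all genes tested. The octamer factors Pou2f1 and Pou2f2 and their coactivator Pou2af1 did not pass, with log2 fold changes of -0.03, 0.44 and 0.57.

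Markers of other cells moved with diet in the plain IDs too. All 14 erythroid markers were called lower and all 10 neutrophil markers higher in gluten-free libraries, and 7 of 10 T cell markers were called higher and 0 lower, against 21.3% of all genes tested called lower and 16.1% higher. The summed erythroid level ran from 57894 to 105860 CPM in gluten-free and from 84938 to 189206 CPM in control libraries, that of T cells from 770 to 876 CPM in gluten-free and from 410 to 669 CPM in control libraries, and that of neutrophils from 2924 to 7751 CPM in gluten-free and from 716 to 2247 CPM in control libraries. With the mean erythroid level as a further term, 0 of the 63 kappa V genes were called in the plain IDs, and calls over all genes fell to 639 of 17600 with that term, against 6591 without it. With the Igkc level as a further term, 1 kappa V gene was called, lower in gluten-free libraries, and 127 of all genes were. With the mean B cell level 18 kappa V genes were called, all higher, and 5107 of all genes in either direction. The erythroid and Igkc terms thus removed most calls over the whole table. Both levels were fully apart between the diets in the plain IDs. The mean erythroid level (log2 CPM) ran from 9.47 to 10.2 in gluten-free and from 10.5 to 11.4 in control libraries. Igkc ran from 2186 to 2627 CPM in gluten-free and from 1147 to 1862 CPM in control libraries. These terms and diet thus cannot be told apart there.

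In the S IDs no kappa V gene passed the threshold in either direction, and 0% of all genes tested did. The median log2 fold change of the 63 genes was -0.67, against 0.02 for all genes tested. It was below 0 for 55 of the 63. An unadjusted p under 0.05 was found for 23 of the 63, all lower in gluten-free libraries. Over all genes tested it was found for 1557 of 17600, 479 of them higher. DESeq2 called 2 kappa V genes and 7 of all genes, and limma-voom called 0 of either. With quality weights limma-voom called 15 kappa V genes, all lower in gluten-free libraries, and 3081 of 17600 genes over the whole table, 1704 of them lower. None of the companion lists (kappa constant and J, lambda, heavy chain constant, recombination, precursors, transcription factors) had a called gene in the S IDs, nor had any list of cell type markers. Median log2 fold changes of the companion lists, in that order, were -0.20, -0.06, -0.30, 0.16, 0.01 and 0.09. Those of the marker lists were 0.18 (B cells), -0.29 (plasma cells), 0.29 (T cells), -0.01 (erythroid) and -0.44 (neutrophils).

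The smallest p within the S IDs was that of Igkv12-38. It had 2.03, 1.25, 1.61, 0.876 and 1.17 CPM in gluten-free libraries S1, S3, S5, S6 and S8, against 4.45, 7.28 and 2.78 CPM in control libraries S1, S2 and S6. All gluten-free values were below all control values. The log2 fold change was -1.81 ± 0.34, and the adjusted p of 0.434 by edgeR missed the threshold. Igkv8-24 had 7.85, 8.26, 4.29, 12.2 and 6.84 CPM in gluten-free libraries S1, S3, S5, S6 and S8, against 14.4, 19.3 and 17.6 CPM in control libraries S1, S2 and S6. Igkv4-53 had 15.1, 13.2, 12.9, 19.5 and 11.01 CPM in the same gluten-free libraries, against 20.9, 25.1 and 24.4 CPM in the same controls. Neither gene's groups overlapped, and the log2 fold changes were -1.11 ± 0.24 and -0.71 ± 0.18 (adjusted p = 0.466 for both by edgeR). Without control S6, Igkv12-38 passed the threshold (log2 fold change -2.08, adjusted p = 0.0349 by edgeR).

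Igkv14-126 varied widely within the S IDs. It had 57.1, 9.39, 16.2, 57.4 and 14.6 CPM in gluten-free libraries S1, S3, S5, S6 and S8, against 76.2, 105 and 27.0 CPM in control libraries S1, S2 and S6. The groups overlapped, with control S6 below gluten-free S1 and S6, and the log2 fold change was -1.16 ± 0.59 (adjusted p = 0.586 by edgeR). Without Igkv14-126 the effective number of the other genes was lower in gluten-free than in control libraries of the S IDs by 0.40, against a difference of 2.53 in the other direction with it.

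The difference between the diet effects was tested as the interaction of diet and ID form, the log2 fold change of the S IDs minus that of the plain IDs. Of the 63 kappa V genes, 28 were called with a more negative diet difference in the S IDs and 0 with a more positive one, while 10.3% of all genes tested were called lower. The median interaction of the 63 was -1.33, against -0.04 for all genes tested, and it was below 0 for 59. Among the 10 most used genes, Igkv5-45 had an interaction of -1.76 ± 0.29, Igkv4-53 of -1.44 ± 0.24 and Igkv8-24 of -1.86 ± 0.31 (adjusted p = 0.00181 for each by edgeR). The largest interaction of the 10 genes with the smallest p was that of Igkv12-38, at -2.41 ± 0.44 (adjusted p = 0.00225 by edgeR), and for Igkv14-126 it was -1.83 ± 0.77, which did not pass (adjusted p = 0.0824 by edgeR). Igkc changed in the same direction, with an interaction of -1.21 ± 0.27 (adjusted p = 0.00444 by edgeR), as did Ighm at -1.24 ± 0.28. Of the 6 genes of the kappa constant and J list, 1, Igkc, was called lower and 0 higher.

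**Figure D3:**
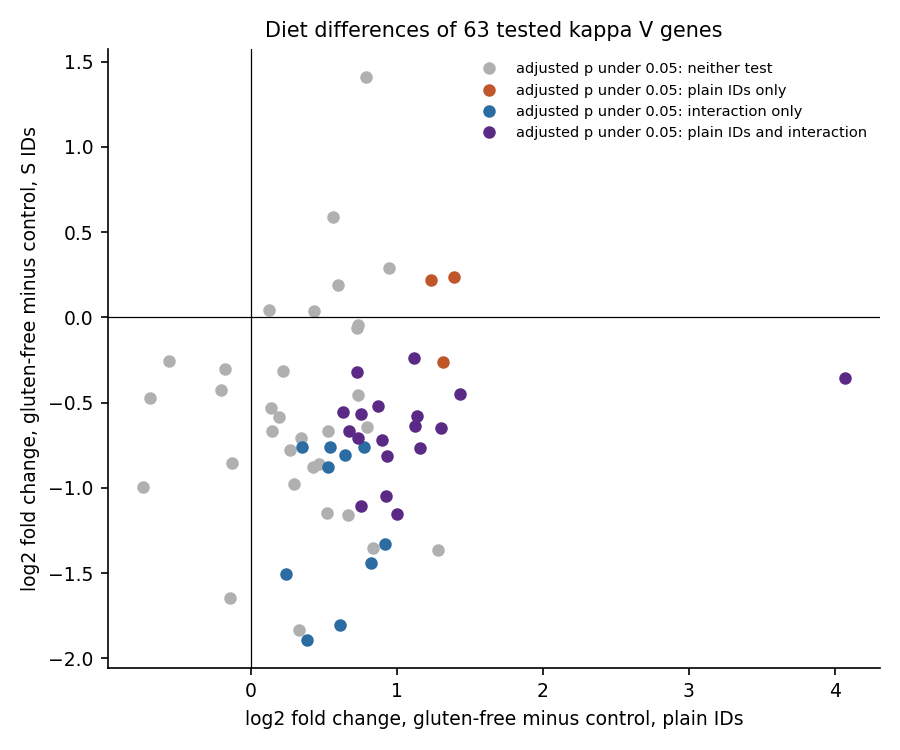
Log2 fold change of gluten-free against control in the plain IDs (horizontal axis) and in the S IDs (vertical axis) for 63 tested kappa V genes (points), coloured by which test had an adjusted p under 0.05. Most points lie at the lower right, above 0 in the plain IDs (56 of 63) and below 0 in the S IDs (55 of 63).

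The marker lists also took part in the interaction. All 10 neutrophil markers and 3 of 8 plasma cell markers were called with a more negative diet difference in the S IDs, 9 of 14 erythroid markers with a more positive one (15.3% of all genes tested were), and 0 of 10 B cell markers in either direction. With the mean erythroid level as a further term, 8 kappa V genes were called, all lower, among 1855 of 17600 genes (1000 lower). With the Igkc level 0 of the kappa V genes and 0 of all genes were called. Without control S6, 16 of the kappa V genes were called, all lower, among 3493 of 17954 genes (1493 lower).

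Over all 20 libraries, with the ID form as a term, no kappa V gene was called for diet, and 0% of all genes tested were called in either direction. The median log2 fold change of the 63 was 0.09, against 0.01 for all genes tested. Of the 63, 4 had an unadjusted p under 0.05, all higher in gluten-free libraries. Of all 17600 genes tested, 4485 had such a p, 1947 of them higher, a larger share than among the kappa V genes. DESeq2 called 1 kappa V gene and 1596 of 15884 genes, and limma-voom 0 kappa V genes and 1 of all genes. With quality weights limma-voom called 27 of 63 kappa V genes, all higher, and 9572 of 17600 genes, 5090 of them higher. Without control S6 edgeR called 5 of 64 kappa V genes and 3765 of 17954 genes, and without gluten-free S8 it called 2 of 63 kappa V genes and 2990 of 17573 genes. The 3 smallest p-values were those of Igkv4-91 (log2 fold change 2.77 ± 0.78, adjusted p = 0.102 by edgeR), Igkv9-123 (0.96 ± 0.31, adjusted p = 0.102 by edgeR) and Igkv8-19 (0.59 ± 0.22, adjusted p = 0.12 by edgeR). This comparison combines the opposite differences of the 2 ID forms.

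S and plain libraries were also compared with diet as a term. Of the 63 kappa V genes, 8 were called lower in the S IDs and 1 higher, while of all genes tested 3.74% were called lower and 5.40% higher. The median log2 fold change, S over plain, was -0.60. This comparison averages over diets that differed in opposite directions. Gluten-free libraries had a mean summed level of 254 CPM in the S and 640 CPM in the plain IDs. Control libraries had 431 CPM in the S and 394 CPM in the plain IDs. The summed level was thus lower in the S IDs among gluten-free libraries only. Igkv4-55 had the smallest p, with 0.903, 0.130, 0.311, 0.526 and 0.167 CPM in gluten-free S1, S3, S5, S6 and S8 and 0.0618, 0.633 and 0.555 CPM in control S1, S2 and S6. In the plain IDs it had 3.12, 1.96, 0.959 and 1.29 CPM in gluten-free libraries 7, 8, 9 and 10, and between 0.586 and 1.85 CPM in control libraries. The S values were mostly below the plain ones with some overlap, and the log2 fold change was -1.83 ± 0.39 (adjusted p = 0.00904 by edgeR).

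Igkv1-110 (log2 fold change -1.0 ± 0.22), Igkv1-117 (-0.87 ± 0.20), Igkv8-19 (-0.93 ± 0.23), Igkv1-133 (-1.30 ± 0.39), Igkv14-100 (-0.84 ± 0.25), Igkv4-53 (-0.63 ± 0.19) and Igkv8-28 (-0.95 ± 0.30) were the others called lower. The gene called higher was Igkv6-29, at 0.90 ± 0.27 (adjusted p = 0.0392 by edgeR). It averaged 1.61 ± 0.774 CPM in gluten-free S and 2.97 ± 1.13 CPM in control S libraries, and 1.42 ± 0.132 CPM in gluten-free and 0.990 ± 0.269 CPM in control libraries of the plain IDs. It is the nearest match of Igkv6-20, so its counts are uncertain. The count of genes called in this comparison moved between 4 (without control 8) and 22 (without control S6) when single libraries were left out, and that of all genes was 1186 and 4413 in the same fits. Igkv1-133, Igkv14-100, Igkv4-53, Igkv6-29 and Igkv8-28 each lost their call without some of the libraries, and 7 of 14 erythroid markers were called higher in the S IDs.

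Shares of the kappa V counts were compared between libraries to describe usage apart from the summed level. In the plain IDs the gluten-free and control ranges overlapped for every kappa V gene. In the S IDs the observed ranges did not overlap for Igkv17-127, Igkv7-33, Igkv12-41 and Igkv9-123. With 5 and 3 libraries, ranges part by chance more often than with 4 and 8. The ID forms thus cannot be compared by these counts, and an excess over chance was not tested. Igkv17-127 took 3.31% of the kappa V counts in gluten-free and 1.95% in control libraries, and Igkv7-33 took 1.05% in gluten-free and 1.73% in control libraries. For Igkv12-41 and Igkv9-123 the shares rested on as few as 12 and 7 counts in a library, so that counting error can close the gap. It can do so for Igkv17-127 too, with 2.48% in gluten-free S6 (204 counts) and 2.45% in control S2 (176 counts). The same holds for Igkv7-33, with 1.40% in gluten-free S3 (72 counts) and 1.61% in control S1 (104 counts). Igkv3-3 had 0 counts in every gluten-free and 1 count in every control library of the S IDs, which this depth cannot tell apart. Igkv5-45, with the smallest p by level, took 4.40% in gluten-free and 3.43% in control libraries of the plain IDs on average, and 4.13% and 3.67% in those of the S IDs. Igkv10-96 took 5.85% and 5.17% in the plain IDs and 6.73% and 6.47% in the S IDs (gluten-free and control). Of the 20 families, 0 differed in mean share between the diets by more than the SD of both groups in the plain IDs, and 4 did in the S IDs (Igkv2, Igkv7, Igkv11 and Igkv17). The groups differ in size here too, so the ID forms cannot be compared by these counts. Igkv7 and Igkv11 hold 1 gene each, and that of Igkv7 is Igkv7-33. Igkv17 took 3.31% ± 1.33 in gluten-free and 1.95% ± 0.442 in control libraries of the S IDs, nearly all of it from Igkv17-127. Igkv14 took 12.3% ± 5.67 in gluten-free and 17.2% ± 8.57 in control libraries of the S IDs, a difference within the SD of either group. Igkv1 took 19.6% ± 2.34 in gluten-free and 18.7% ± 2.07 in control libraries of the plain IDs, and 16.9% ± 2.73 in gluten-free and 16.0% ± 1.63 in control libraries of the S IDs.

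The share of Igkv14-126 varied widely within the groups. It was highest in control 8, at 29.8%, and lowest in gluten-free S3, at 4.22%. In mice Igkv14-126 is known to pair with the heavy chain gene Ighv11-2, and Igkv4-91 with Ighv12-3, in B-1a cells that bind phosphatidylcholine, a long-lived B cell subset. These pairs were chosen after the usage values had been seen. The share of Ighv11-2 among the heavy chain V counts was 19.9% in control 8 and 1.65% in gluten-free S3, the highest and the lowest of the 20 libraries.

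Over the 20 libraries the shares of Igkv14-126 and Ighv11-2 had a Pearson r of 0.966 and a Spearman rho of 0.967 (p = 2e-05 for both, two-sided permutation test with 100000 permutations, the smallest p it can give). The Benjamini-Hochberg adjusted p over the 6 correlations computed was 6e-05 for r and 9.92e-05 for rho. Without control 8 and gluten-free S3, the libraries farthest from the median of Ighv11-2, r was 0.966. The relation held within each ID form, with r = 0.981 (permutation p = 2e-05) and rho = 0.958 (permutation p = 4e-05) in the plain IDs (n = 12), and r = 0.996 and rho = 1 (exact permutation p = 4.96e-05 for both, the smallest it can give) in the S IDs (n = 8). Every library with a higher Ighv11-2 share among the S IDs had a higher Igkv14-126 share.

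**Figure D4:**
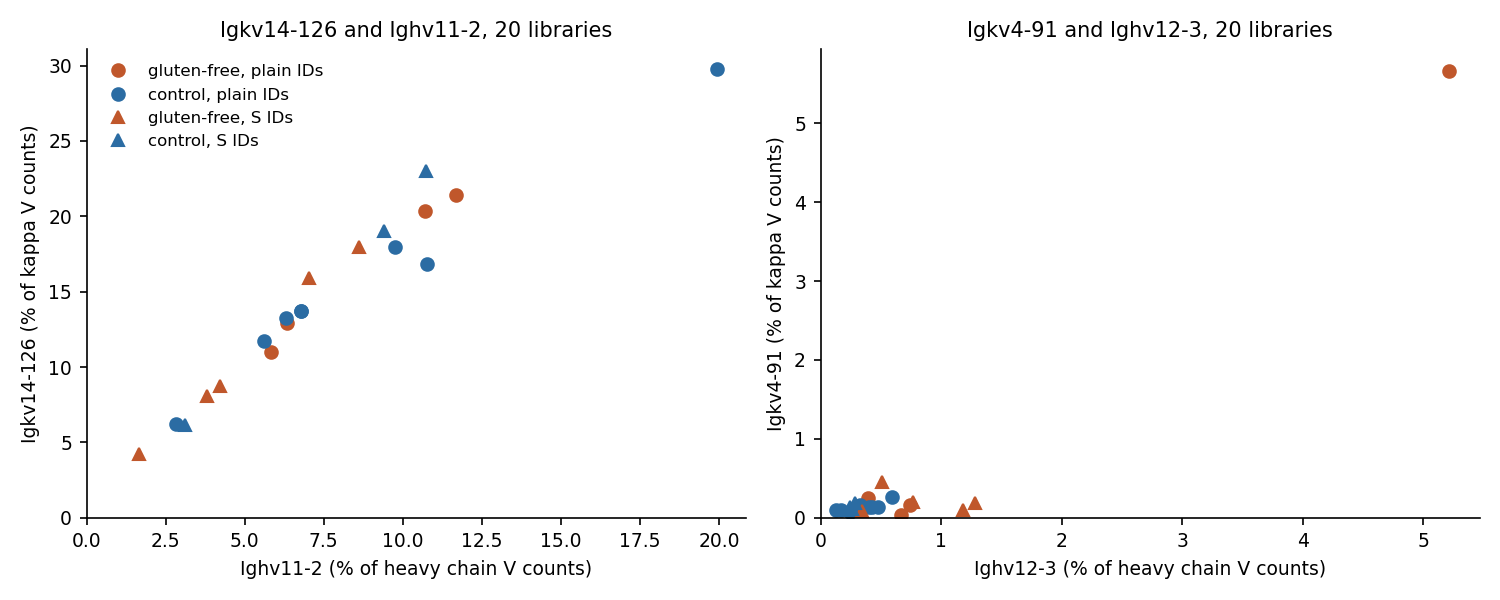
Share of Igkv14-126 (left) and Igkv4-91 (right) among the kappa V counts (%, vertical axes) against the share of Ighv11-2 (left) and Ighv12-3 (right) among the heavy chain V counts (%, horizontal axes), in 20 libraries coloured by diet, with circles for plain and triangles for S IDs. On the left the libraries lie along a line from 4.22% to 29.8%, and on the right gluten-free 10 lies far from the others, at 5.65%.

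Igkv4-91 and Ighv12-3 were both far above the other libraries in gluten-free 10. Igkv4-91 had 0.253, 1.09, 1.496 and 36.2 CPM in gluten-free libraries 7, 8, 9 and 10, against 0.261, 0.476 and 1.38 CPM (lowest, median and highest) in control libraries of the plain IDs. In the S IDs it had 0.282, 0.433, 0.186, 0.657 and 0.834 CPM in gluten-free S1, S3, S5, S6 and S8, against 0.742, 0.506 and 0.617 CPM in control S1, S2 and S6. Its share in gluten-free 10 was 5.65%, and gluten-free 10 held 75.5% of its summed CPM. Ighv12-3 had 32.5 CPM in gluten-free 10 and at most 5.27 CPM in any other library. The call of Igkv4-91 in the plain IDs (log2 fold change 4.07 ± 0.78, adjusted p = 0.00058 by edgeR) rested on gluten-free 10: without it the log2 fold change was 0.73 (adjusted p = 0.255 by edgeR). Likewise the correlation of the shares of Igkv4-91 and Ighv12-3, r = 0.960 (permutation p = 0.0282) with rho = 0.409 (permutation p = 0.0728) over all 20 libraries, was 0.107 without gluten-free 10 (left out alone after the data were seen) and 0.0898 without gluten-free 10 and gluten-free S6, the libraries farthest from the median of Ighv12-3, so the relation rests on gluten-free 10. Within the S IDs r was -0.025 (exact permutation p = 0.813, n = 8).

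Other genes had their counts gathered in 1 library as well. Igkv3-4 had 42.6 CPM in control 7, 9.25% of that library's kappa V counts, and at most 7.17 CPM in any other library. Igkv4-78 was also highest in control 7, at 7.56 CPM, against at most 2.30 CPM elsewhere. Igkv12-41 had 8.18 CPM in gluten-free S3, against at most 2.15 CPM elsewhere, and in that library another gene of the family, Igkv12-46, took 6.87% of the kappa V counts, against at most 1.92% in the others. Igkv4-80 had 12.9 CPM in gluten-free 8 and at most 4.29 CPM elsewhere.

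These single libraries set the direction of some diet differences. For Igkv3-4 the log2 fold change in the plain IDs was -0.69 ± 0.85 with control 7 and 0.90 without it, not past the threshold either way (adjusted p = 0.53 and 0.193 by edgeR). For Igkv4-78 it was 0.19 ± 0.56 with control 7 (adjusted p = 0.802 by edgeR) and 1.11 without it (adjusted p = 0.0166 by edgeR). Igkv4-80 was called in the plain IDs at 1.32 ± 0.45 (adjusted p = 0.0267 by edgeR) and was not called without gluten-free 8.

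**Figure D5:**
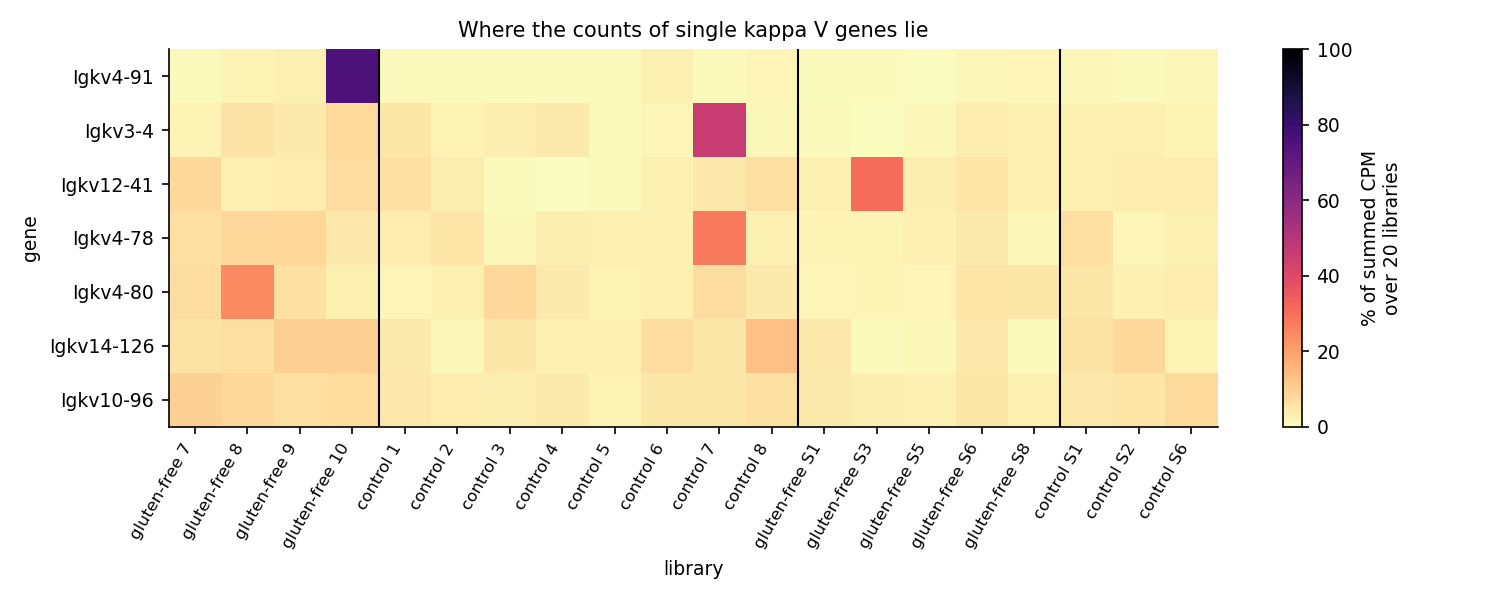
Percentage of each gene's summed CPM over 20 libraries that lies in each library (colour), for the 5 kappa V genes with at least 100 counts that are most concentrated in 1 library and, for comparison, the most used genes Igkv14-126 and Igkv10-96. Black lines separate gluten-free plain, control plain, gluten-free S and control S libraries, and 75.5% of Igkv4-91 lies in gluten-free 10.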

How the data were processed

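RNA of whole spleen was sequenced on an Illumina instrument, per the labels' protocols. The authors deposited unnormalized read counts for each gene as whole numbers, and these were used. The tools were CASAVA, HISAT2 2.0.5 and featureCounts 1.5.0, with the build GRCm38 (mm10), per the submitters' processing notes. The strand setting and how reads with several matches were handled are not given in the sources used here. All kappa V genes had the same position in the file as in GENCODE M21.

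The counts were analysed in R 4.3.3 with edgeR 4.0.16 (TMM scaling, default expression filter, quasi-likelihood test, two-sided), fitted on the whole table with Benjamini-Hochberg adjustment over 17600 genes. The diet contrasts within ID forms and their interaction came from 1 fit with 4 group means. Errors of fold changes are standard errors. DESeq2 1.42.0, limma 3.58.1 (voom) and further scalings, filters, covariates and left-out libraries were alternatives. The fits were tested on simulated data. In 47 pairs of libraries of 1 group, chi-square per degree of freedom was at least 5.72, so none counted as a repeat.

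Genes named are the 10 highest by mean CPM per kb, up to 10 called genes per fit by p (the 3 smallest p where fewer than 3 were called), and the 5 genes with at least 100 counts most concentrated in 1 library. Up to 3 genes per companion list are named in list order, and further called ones where 5 or fewer were called in a direction. Igkv12-46, Igkv17-127, the other genes named by share ranges, Cr2 and the heavy chain V genes were chosen after their values were seen. The members and lists were chosen with earlier results of these data known.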

Additional observations from a re-analysis of the deposited data

Results flagged for a closer look

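In groups of 4 to 10 libraries, 10 of 84 groups examined held a library far from the others of its group, by Dixon's ratio at the 95% level, which chance flags in about 1 of 20 groups. Among gluten-free plain libraries these were gluten-free 8 for Igkv4-53 (49.9 CPM) and Igkv8-24 (29.1 CPM), gluten-free 10 for Igkv4-91 (36.2 CPM) and gluten-free 9, as the lowest, for Igkv8-28 (1.23 CPM). Among control plain libraries they were control 8 for Igkv14-126 (170 CPM), control 6 for Igkv4-91 (1.38 CPM) and control 7 for Igkv3-4 (42.6 CPM) and Igkv4-78 (7.56 CPM). Among gluten-free S libraries they were gluten-free S6 for Igkv6-20 (17.8 CPM) and gluten-free S3 for Igkv12-41 (8.18 CPM). Most groups examined were of named genes, 5 of which were named for having their counts most in 1 library. The rate flagged thus cannot be set against chance.

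The 10 kappa V genes with the smallest p for the interaction all differed in their diet difference between the ID forms. The test was edgeR's test of the interaction (S minus plain, log2, adjusted over all genes tested). The interactions were -1.61 for Igkv10-96, -1.44 for Igkv4-53, -2.15 for Igkv1-132, -1.97 for Igkv3-1, -1.39 for Igkv6-20, -1.76 for Igkv5-45, -1.86 for Igkv8-24, -1.75 for Igkv9-124, -2.41 for Igkv12-38 and -2.26 for Igkv5-39. Igkv5-39 had 2.09, 3.25, 2.48, 2.59 and 1.45 CPM in gluten-free S1, S3, S5, S6 and S8, against 11.8, 2.09 and 5.49 CPM in control S1, S2 and S6, so that control S2 lay within the gluten-free range. Other genes named in the text also passed for the interaction. They were Igkv1-110 (-1.32), Igkv8-19 (-1.36), Igkv1-117 (-1.05), Igkv6-29 (-1.40), Igkv4-91 (-4.42), Igkv8-28 (-1.54) and Igkv1-133 (-1.88).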

How the results depend on the processing

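For 57 fold changes of named genes, 1834 alternative values were computed: 1610 kept their direction and side of the threshold, 134 lost their call and 27 gained one in the same direction, 63 changed sign, and the cause was not tested. Genes called over all libraries numbered 1 by DESeq2 and 27 by limma-voom with quality weights, against 0; in the plain IDs 33 with quality weights, 0 with an erythroid and 1 with an Igkc term, against 21; in the S IDs 2 by DESeq2 and 15 with quality weights, against 0; for the interaction 8 with an erythroid and 0 with an Igkc term, against 28; and for the ID form 41 with quality weights, 1 with an erythroid, 5 with a B cell and 2 with an Igkc term, against 9. Of the 33 genes called with quality weights in the plain IDs, 32 were higher and 1 lower. Over all 17600 genes, quality weights called 54.4% over all libraries, 59.4% in the plain IDs, 17.5% in the S IDs and 37.5% for the ID form. For the ID form, 1609 of all 17600 genes were called in the main fit. That number fell to 326 with an erythroid, 1261 with a B cell and 519 with an Igkc term. With single libraries left out, the numbers of kappa V genes called ran from 0 to 5 over all libraries, 16 to 25 in the plain IDs, 0 to 1 in the S IDs, 16 to 35 for the interaction and 4 to 22 for the ID form. Calls over all genes tested moved as well in these fits. They ran from 0 to 3765 over all libraries, 5194 to 7808 in the plain IDs and 0 to 3 in the S IDs. For the interaction they ran from 3338 to 5445, and for the ID form from 561 to 4413. Of 4 shared IDs, same-numbered libraries deviated together with correlations between -0.22 and 0.41, so the numbers were not taken to pair them; with the replicate block over those 8 libraries 0 genes were called, and without the block, a fit added after the data were seen, also 0.

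Sign changes of diet log2 fold changes over all libraries were as follows. With the erythroid term they were Igkv10-96 -0.44, Igkv4-53 -0.30, Igkv1-132 -0.54, Igkv1-117 -0.075, Igkv3-1 -0.65, Igkv6-20 -0.25, Igkv1-110 -0.15, Igkv5-45 -0.31, Igkv8-24 -0.60 and Igkv3-4 0.24. With the Igkc term they were Igkv4-53 -0.029, Igkv1-132 -0.14, Igkv3-1 -0.10 and Igkv8-24 -0.24, and with the B cell term Igkv3-1 -0.087, Igkv8-24 -0.10 and Igkv4-78 0.023. Igkv8-24 was also at -0.019 by DESeq2, -0.0096 with RLE scaling, -0.0052 with TMM without immunoglobulin genes, -0.0057 where genes averaged 1 CPM or more and -0.0041 with no filter, against 0.0063. By limma-voom, without and with quality weights, Igkv14-126 was at 0.025 and 0.83, Igkv3-4 at 0.076 and 0.40 and Igkv4-78 at 0.44 and 0.77. Over the 8 libraries with shared IDs, Igkv4-91 was at -0.31 with the replicate block and -0.19 without it. With single libraries left out, Igkv14-126 ran from -0.21 to 0.15, Igkv4-53 from -0.0071 to 0.23, Igkv1-132 from -0.027 to 0.40, Igkv3-1 from -0.053 to 0.30, Igkv8-24 from -0.16 to 0.11, Igkv3-4 from -0.78 to 0.35 and Igkv4-78 from -0.21 to 0.45.

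In the plain IDs, Igkv3-4 was at 1.16 with the erythroid term, 0.041 with the B cell term, 0.56 by limma-voom and 0.41 with quality weights, and ran from -0.99 to 0.90 with single libraries left out. Igkv12-41 was at -0.68 with the erythroid and -0.38 with the Igkc term, and with the Igkc term Igkv14-126 was at -0.56 and Igkv4-78 at -0.82. Upper quartile scaling moved the median of all genes in the plain IDs to 0.13.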
